A study of Mus musculus with 43 samples.

Results

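Neutrophils sorted from mouse spleen were profiled 2 h after an injection of interferon alpha (2 arrays) and at baseline (2 arrays), which made 4 of the 43 arrays of the series. They were chosen by their titles. The interferon group came from male C57BL/6 mice aged 6 weeks that had received 10000 U of interferon alpha under the skin, and the baseline group from mice of the same strain, sex and age. No vehicle injection is labelled, so the effects of the injection and of interferon cannot be told apart. Cells of both groups were sorted as Ly6G-positive, Ly6G being a surface protein of mouse neutrophils. Spleens are described as dissociated and digested for both interferon arrays and as dissociated and stained for both baseline arrays, so in neutrophils the preparation and the treatment cannot be told apart. Whether the 2 arrays of a group came from separate animals is not labelled, so the p-values here cover the spread among arrays, which may be technical. That spread is pooled for each gene over the arrays of all cell types. The other 39 arrays cover CD4, CD8, regulatory and gamma-delta T cells, NK cells, NKT cells, spleen dendritic cells and peritoneal macrophages, each with 3 baseline arrays and 2 interferon arrays, except that macrophages have 1 interferon array.

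Type I interferons bind a receptor of the IFNAR1 and IFNAR2 chains on almost all cells. The kinases JAK1 and TYK2 then activate a transcription factor complex that holds STAT2 and IRF9 and binds a DNA motif called the interferon-stimulated response element, or ISRE, at the genes it switches on. Neutrophils are short-lived phagocytes that carry most of their antimicrobial proteins ready-made in granules, and their transcription after interferon adds antiviral proteins, cytokines and surface receptors to that store.

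The letters of the ISRE core, GAAANNGAAA or TTTCNNTTTC on the strand of the gene, were looked up in the RefSeq promoter windows (GRCm38.p6) that run from 250 bases before a gene's start to 50 after it. The core was found in 15.4% of the windows of genes raised by interferon in neutrophils (76 of 493), against 3.26% of the windows of all measured genes (619 of 18961) and 1.86% of those of lowered genes (11 of 591). Of the 23 largest named rises with a window, 11 held it, and none of the 17 largest named falls with a window did. A match is a description of letters and not a bound site, and its absence says only that these letters were not in the window. The bases before the start of the 4 largest named rises with a core, and of the largest without one, are shown 5′ to 3′ on the gene's strand because these genes carry the top of the response, with the core in capitals.
Gbp5: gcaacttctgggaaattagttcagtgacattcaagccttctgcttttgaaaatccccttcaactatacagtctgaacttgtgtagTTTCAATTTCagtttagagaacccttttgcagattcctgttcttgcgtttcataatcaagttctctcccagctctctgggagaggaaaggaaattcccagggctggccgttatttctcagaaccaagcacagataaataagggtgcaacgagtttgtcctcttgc
Ifi205: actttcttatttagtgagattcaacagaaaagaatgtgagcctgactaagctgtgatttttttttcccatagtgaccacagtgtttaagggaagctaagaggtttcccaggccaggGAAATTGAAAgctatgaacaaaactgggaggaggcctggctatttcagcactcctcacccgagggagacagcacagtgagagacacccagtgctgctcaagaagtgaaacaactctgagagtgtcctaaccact
Cxcl10: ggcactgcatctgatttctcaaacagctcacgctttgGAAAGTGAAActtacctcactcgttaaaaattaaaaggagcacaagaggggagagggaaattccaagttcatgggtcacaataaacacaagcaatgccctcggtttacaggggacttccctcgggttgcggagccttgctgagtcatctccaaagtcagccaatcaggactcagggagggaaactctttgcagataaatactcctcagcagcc
Ifit3b: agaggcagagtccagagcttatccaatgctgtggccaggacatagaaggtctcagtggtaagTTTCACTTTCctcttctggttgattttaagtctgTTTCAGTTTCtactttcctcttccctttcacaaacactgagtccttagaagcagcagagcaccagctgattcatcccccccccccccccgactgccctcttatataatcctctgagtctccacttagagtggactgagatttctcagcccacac
Ifit2: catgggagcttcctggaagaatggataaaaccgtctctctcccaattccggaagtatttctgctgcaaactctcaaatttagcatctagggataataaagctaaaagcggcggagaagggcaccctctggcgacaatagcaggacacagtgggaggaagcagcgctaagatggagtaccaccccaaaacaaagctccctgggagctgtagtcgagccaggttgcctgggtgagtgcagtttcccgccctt
Gbp5 lies on the plus strand and the bases shown are chr3:142496684-142496933, with the core starting 165 bases before the gene's start. Ifi205 lies on the minus strand (chr1:174031756-174032005), with 1 core starting 134 bases before the start and another beyond the bases shown. For Cxcl10, on the minus strand (chr5:92348890-92349139), the core started 213 bases before the start. Ifit3b, on the plus strand (chr19:34607707-34607956), had cores starting 188 and 154 bases before the start. Ifit2, on the plus strand (chr19:34550444-34550693 for the first of its 2 windows), had none in either window.

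The label was borne out by the markers. The median level of 13 neutrophil marker genes, among them S100a8, Retnlg and Cxcr2, was 12.51 at baseline on the log2 intensity scale, against 5.32 to 6.82 in the other 8 cell types. The same median was 12.55 and 12.55 on the interferon arrays and 12.41 and 12.62 on the baseline arrays. The interferon arrays were less alike than the baseline arrays, with a correlation over all genes of 0.956 between interferon arrays and 0.981 between baseline arrays. Between the interferon arrays 498 genes lay at least 1 log2 unit apart, and between the baseline arrays 71. Interferon array 2 was closer to baseline array 2 (correlation 0.960) than to interferon array 1.

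Of 19752 genes, interferon raised 480 (2.43%) and lowered 563 (2.85%) in neutrophils at a Benjamini-Hochberg adjusted p below 0.05 and a change of at least 1 log2 unit, that is 2-fold. The median change over all genes was 0.08. The rises were larger than the falls: 144 raised genes passed 4-fold and 54 passed 8-fold, against 30 and 9 lowered genes. The median raised gene changed by 1.57 log2 units and the median lowered gene by -1.23. In 54.3% of all genes the interferon and baseline arrays did not overlap. Of the raised genes 324 were called with any 1 of the 4 arrays left out, and of the lowered genes 200. The count of lowered genes was 269 without interferon array 1 and 1024 without interferon array 2. In 476 of the 563 lowered genes interferon array 1 was the lower of the interferon arrays.

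**Figure D1:**
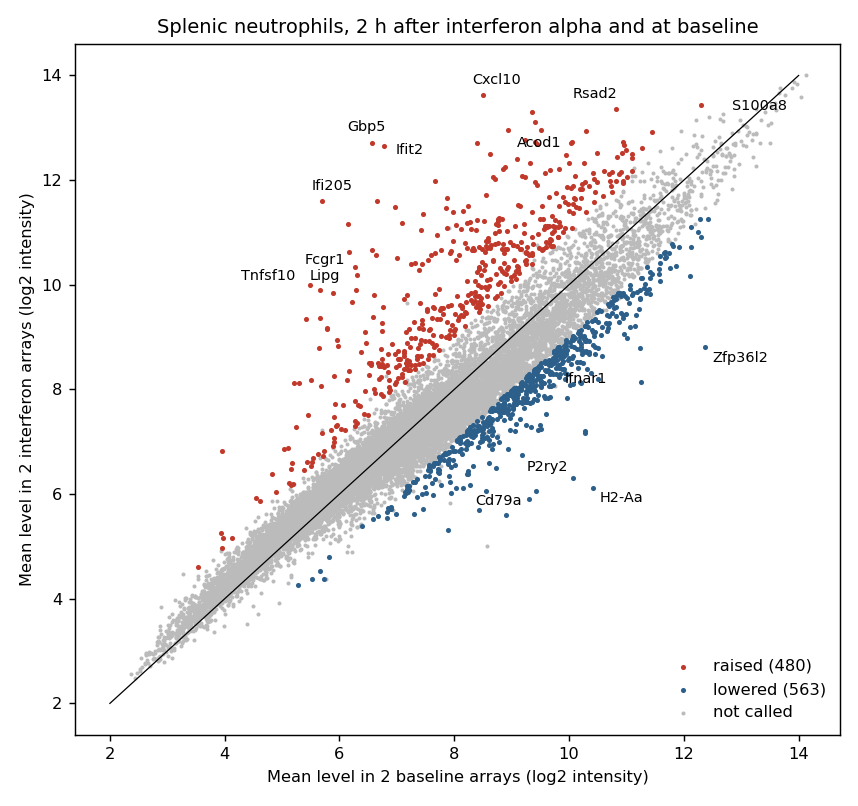
Each point is a gene, with its mean over the 2 interferon arrays on the vertical axis and over the 2 baseline arrays on the horizontal axis (log2 intensity), and the line marks equal levels. Raised genes (480) reach farther from the line than lowered genes (563), with Gbp5 70.1-fold higher and H2-Aa 19.6-fold lower.

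Gbp5, a guanylate-binding GTPase that takes part in inflammasome assembly and attack on intracellular microbes, had the largest rise. Its level was 12.70 and 12.71 on the interferon arrays, against 6.42 and 6.73 on the baseline arrays. The difference was 6.13 ± 0.29 (SE; adjusted p = 1.23e-16), or 70.1-fold. Both interferon arrays stood far above both baseline arrays. For the 25 largest named rises, groups without overlap and the same sign with the preparation term were conditions of being named. All 25 were called with the preparation term and with neutrophil arrays alone.
Ifi205, a DNA-binding protein of the PYHIN family, was at 11.72 and 11.49 on the interferon arrays, against 5.85 and 5.54 on the baseline arrays, a difference of 5.91 ± 0.45 (adjusted p = 1.08e-11). Ifit2, which binds RNA and restrains translation, was at 12.52 and 12.77 on the interferon arrays, against 6.75 and 6.82 at baseline, a difference of 5.86 ± 0.29 (adjusted p = 3.08e-16). Cxcl10, a chemokine for T and NK cells that carry CXCR3, was at 13.58 and 13.68 on the interferon arrays, against 8.31 and 8.69 at baseline, a difference of 5.13 ± 0.33 (adjusted p = 1.52e-13). In all 3 the groups lay several log2 units apart.
The rest of the 25 changed by 3.71 to 5.0 log2 units. They hold Tnfsf10 (the death ligand TRAIL, 4.51), Herc6 (which attaches ISG15 to proteins, 4.31), Lipg (endothelial lipase, 4.24), Pnp (purine nucleoside phosphorylase, 4.08), Fcgr1 (the high-affinity IgG receptor, 4.06), Acod1 (which makes itaconate, 4.02), Pnpt1 (mitochondrial polynucleotide phosphorylase, 3.96), Ifit1 (3.95) and Usp18 (which removes ISG15 and restrains receptor signalling, 3.71). Families with near-identical copies, such as Ifit3b, Ifi205 to Ifi213, Gbp, Slfn and Phf11c, can share array signal, so the split between their members is uncertain.

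**Figure D2:**
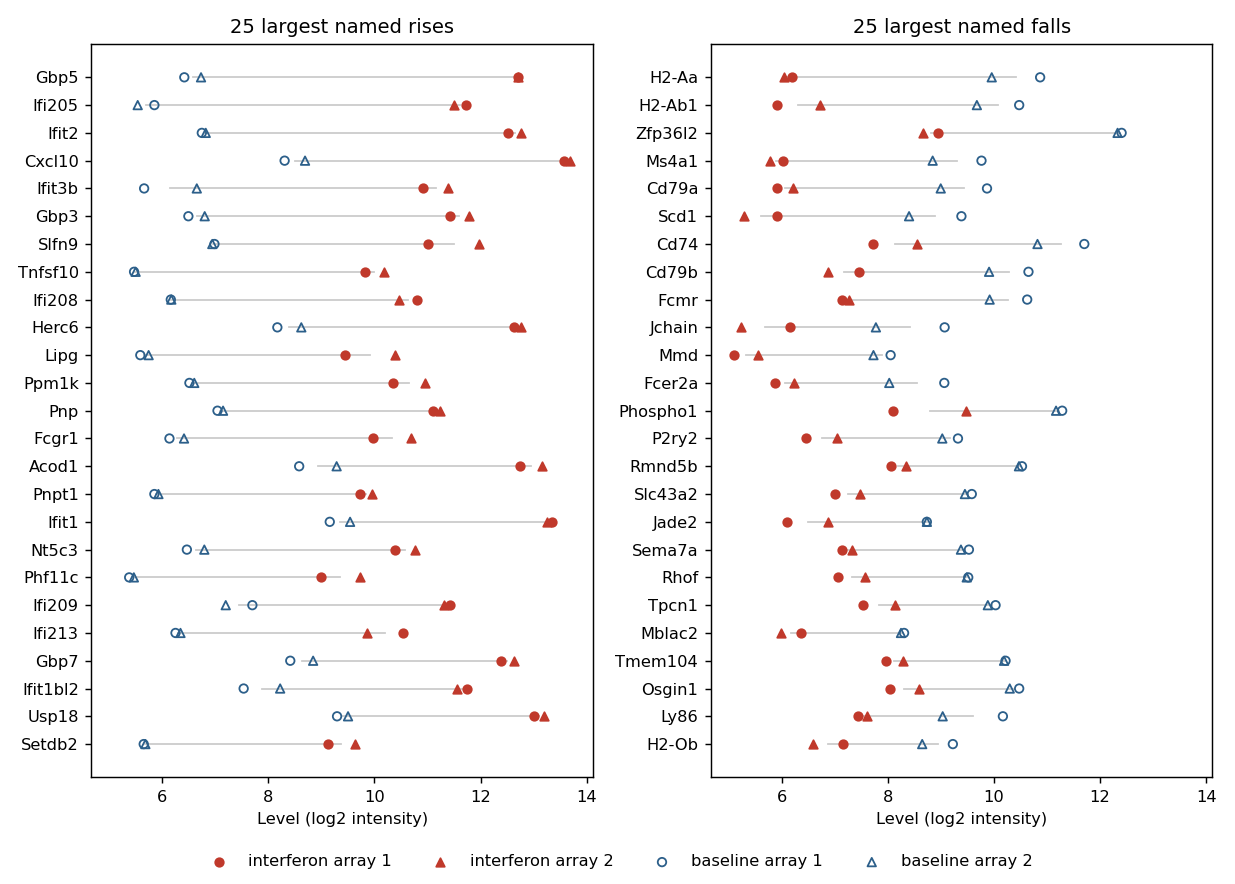
Levels (log2 intensity) of the 25 largest named rises (left) and falls (right), with filled red symbols for interferon arrays, open blue symbols for baseline arrays and a grey line between the group means. The groups do not overlap for any gene shown, which was a condition of being named. In the falls of B cell genes such as Cd79a and Ms4a1 baseline array 1 lies above baseline array 2.

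The antiviral lists rose together. Of 25 antiviral effectors 18 rose and 0 fell, with a median change of 1.76, against 0.08 over all genes. All 9 measured interferon-inducible GTPases rose, with a median change of 3.37. With the preparation term 7 of them were called, and with the B cell covariate described further on 6. All 11 measured genes of the ISG15 and PARP list rose as well (median 2.55), but Isg15 itself was not among the measured genes. Of 20 schlafen, TRIM and nuclear body genes 16 rose (median 1.44), and 12 with the B cell covariate. Of 14 nucleic acid sensors 8 rose (median 1.62), led by Ifi205 and Ifih1, the long double-stranded RNA sensor MDA5. Ifih1 was at 12.11 and 12.32 on the interferon arrays, against 8.54 and 9.17 on the baseline arrays (change 3.36 ± 0.31, adjusted p = 6.86e-10). Cgas, the cytosolic DNA sensor that makes cGAMP, was at 7.61 and 8.64 on the interferon arrays, against 5.03 and 5.56 at baseline (change 2.83 ± 0.25, adjusted p = 2.13e-10). Apobec3, a cytidine deaminase that restricts retroviruses, was at 12.28 and 12.37 on the interferon arrays, against 9.99 and 9.99 at baseline (change 2.33 ± 0.20, adjusted p = 1.68e-10).

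Taken as a list, the antiviral effectors were already high at baseline and changed less than in the other cell types. The median baseline level of the list was 9.67 in neutrophils, against 7.23 to 8.19 in the other 8 types, while its median change was 1.76 in neutrophils and 2.97 in the mean of the others. Rsad2, the antiviral enzyme viperin, was at 13.28 and 13.45 on the interferon arrays, against 10.62 and 11.01 on the baseline arrays. Its change of 2.55 was smaller than the mean of 4.61 in the other types, a difference of -2.06 ± 0.30 (adjusted p = 2.6e-05). Oasl2 was at 12.84 and 13.04 with interferon, against 11.80 and 12.11 at baseline, and its change of 0.98 lay just under the 1-unit minimum. Ifitm3, a membrane protein that blocks virus entry, was at 13.28 and 13.06 with interferon, against 12.56 and 12.71 at baseline, and did not pass the test (change 0.53, adjusted p = 0.57). In all, 8 of the 25 effectors changed less than in the mean of the other 8 types and 2, Ifit2 and Apobec3, changed more. Against dendritic cells and macrophages alone the difference of Ifit2 was not called (0.82 ± 0.37, limma adjusted p = 0.306). Its change was 4.76 in dendritic cells and 5.31 in macrophages.
Mx1 and Iigp1 also changed less, from low levels. Mx1, a dynamin-like GTPase, was at 6.20 and 6.75 on the interferon arrays, against 5.26 and 5.04 on the baseline arrays, a change of 1.32, against 4.06 to 5.37 in each other type. With the preparation term the change of Mx1 was 0.85 and was not called. Iigp1, an immunity-related GTPase, was at 6.20 and 6.24 with interferon, against 5.11 and 5.13 at baseline, a change of 1.10 that was below the 1-unit minimum with the preparation term (0.98), against a mean of 3.82 in the other types.

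**Figure D3:**
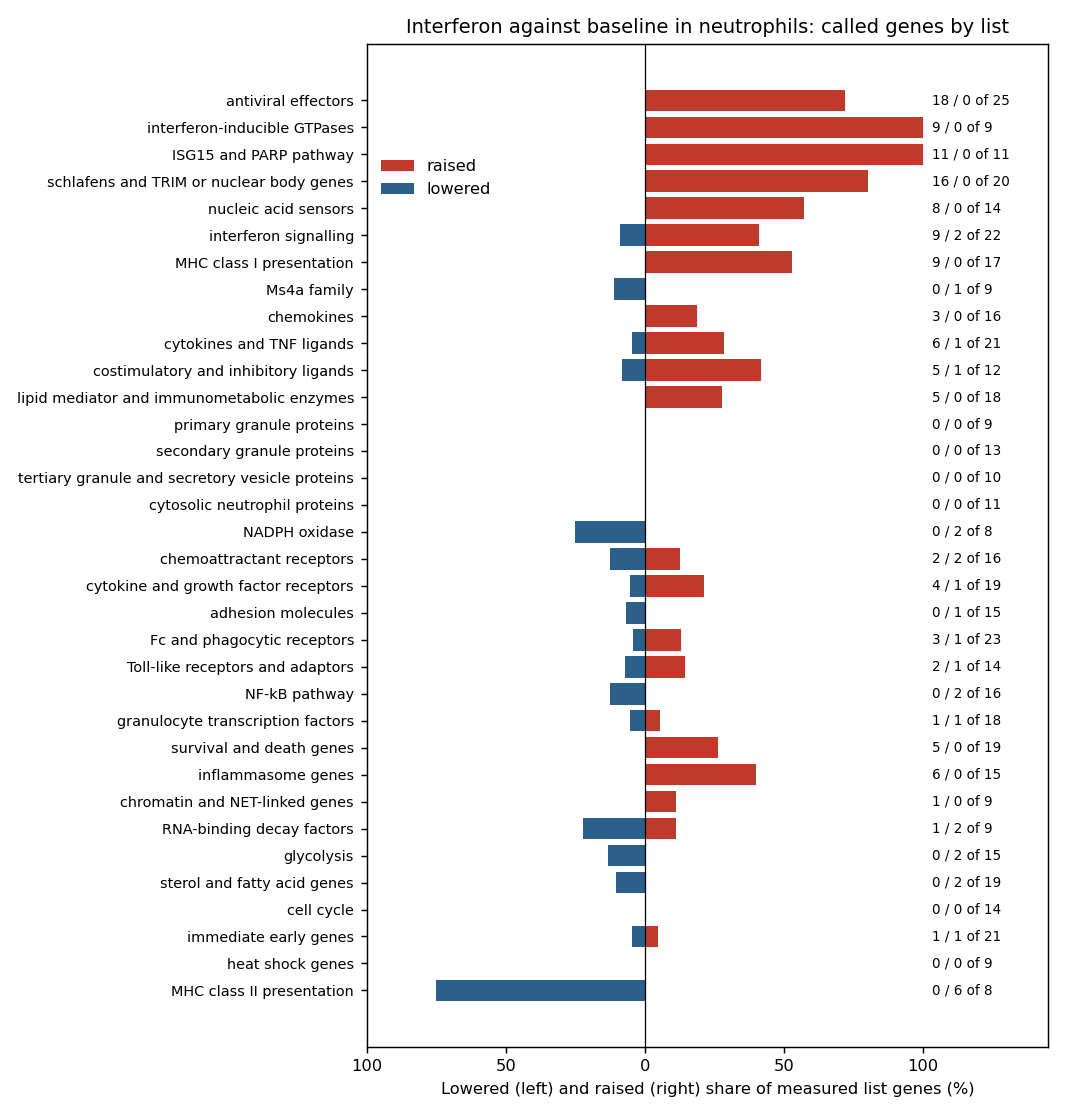
Share of the measured genes of each list that was raised (red, to the right) or lowered (blue, to the left) by interferon in neutrophils, with the counts at the right as raised / lowered of measured. The interferon-inducible GTPases (9 of 9) and the ISG15 and PARP genes (11 of 11) were all raised, and the 4 granule and cytosolic protein lists had no called gene with all 4 arrays and no covariate.

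The pathway's own parts moved in both directions. Of 22 signalling genes 9 rose (Jak2, Stat2, Irf1, Irf2, Irf5, Irf7, Socs1, Cish and Nmi) and 2 fell (Ifnar1 and Ifngr2), with a median change of 0.36. Ifnar1, a chain of the type I receptor itself, was at 8.26 and 8.67 on the interferon arrays, against 9.79 and 9.81 on the baseline arrays. Its change of -1.34 ± 0.23 (adjusted p = 6.24e-05) was more negative than the mean of -0.08 in the other 8 types, by -1.25 ± 0.24 (adjusted p = 0.00094). Its partner Ifnar2 was at 10.29 and 10.71 with interferon, against 10.78 and 10.78 at baseline, and did not pass the test (adjusted p = 0.392). Ifngr2, a chain of the interferon gamma receptor, changed by -1.49 ± 0.33 (adjusted p = 0.00178), and was not called with the B cell covariate or without interferon array 1.
Stat2, which carries the signal to the nucleus, was at 11.70 and 12.36 with interferon, against 8.46 and 8.97 at baseline (change 3.31 ± 0.26, adjusted p = 2.02e-11). Irf7, the factor that amplifies interferon production, was at 12.69 and 13.20 with interferon, against 10.20 and 10.39 at baseline (change 2.65 ± 0.26, adjusted p = 3.05e-09). Among the feedback inhibitors of cytokine receptors, Socs1 was at 10.87 and 11.54 with interferon, against 8.16 and 8.39 at baseline (change 2.92 ± 0.22, adjusted p = 1e-11). The changes of Socs1 and Cish exceeded the mean of the other types by 1.55 and 1.25 log2 units, while Socs3, at 10.04 and 11.13 with interferon, against 10.33 and 10.85 at baseline, was not called.

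Genes for cytokines and surface signals to other cells rose in part. Of 21 cytokines and TNF ligands 6 rose (Il1rn, Il15, Il18, Il18bp, Il27 and Tnfsf10) and 1 fell (Tgfb1), with a median change of 0.37. Tgfb1 was not called with the B cell covariate, and without interferon array 2 the list held 3 lowered genes (Tgfb1, Tnf and Tnfsf14). Il18, an inducer of interferon gamma, was at 9.49 and 9.84 on the interferon arrays, against 6.22 and 6.22 on the baseline arrays (change 3.45 ± 0.41, adjusted p = 1.4e-07). Its antagonist Il18bp was at 10.97 and 11.31 with interferon, against 8.60 and 8.92 at baseline (change 2.38 ± 0.25, adjusted p = 1.59e-08). Their changes exceeded the mean of the other types by 2.57 and 1.81. Il15ra, which presents IL-15 to NK and T cells, was at 11.07 and 11.20 with interferon, against 7.98 and 8.06 at baseline, and its change of 3.11 exceeded the others' mean by 2.25 ± 0.19 (adjusted p = 8e-10). The classical inflammatory cytokines were not called: Il1b changed by -0.22 (adjusted p = 0.784) from a high level, and Tnf by -0.94 (adjusted p = 0.024), short of the 1-unit minimum.
Of 16 chemokines 3 rose, Cxcl10, Cxcl11 and Ccl4. Ccl4, a CC chemokine, was at 9.23 and 10.07 with interferon, against 7.21 and 7.61 at baseline (change 2.24 ± 0.26, adjusted p = 6.61e-08), while the neutrophil attractant Cxcl2 was at 9.66 and 8.94 with interferon, against 8.68 and 9.23 at baseline, with overlapping groups. Of 12 costimulatory and inhibitory ligands 5 rose (Cd274, Cd69, Lgals9, Lgals3bp and Cd47) and 1 fell (Icosl), the fall not being called with the B cell covariate. Cd274, the inhibitory ligand PD-L1, was at 12.14 and 12.66 with interferon, against 8.81 and 9.37 at baseline (change 3.31 ± 0.32, adjusted p = 1.75e-09). Of 17 genes of MHC class I presentation 9 rose (median 1.20), led by the class I transactivator Nlrc5 (change 3.16 ± 0.32, adjusted p = 5.12e-09).

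Receptors and death pathway genes shifted within lists that mostly stayed below the threshold. Of 23 Fc and phagocytic receptors 3 rose (Fcgr1, Fcgr4 and Treml2) and 1 fell (Sirpa, the receptor for the CD47 signal). Fcgr1 was at 9.98 and 10.68 on the interferon arrays, against 6.14 and 6.41 on the baseline arrays. Of 16 chemoattractant receptors 2 rose (Ccrl2 and P2ry14) and 2 fell (C5ar1 and P2ry2). P2ry2, a receptor for extracellular ATP and UTP, was at 6.46 and 7.05 with interferon, against 9.32 and 9.03 at baseline (change -2.42 ± 0.23, adjusted p = 1.7e-09), whereas P2ry14, a receptor for UDP-glucose, was at 9.07 and 9.70 with interferon, against 6.80 and 6.38 at baseline (change 2.80 ± 0.27, adjusted p = 2.11e-09). Cxcr2, the main receptor that draws neutrophils to tissue, was at 12.41 and 12.55 with interferon, against 12.54 and 12.49 at baseline, so its groups overlapped.
Of 19 cytokine and growth factor receptors 4 rose (Il1r2, Il10ra, Il15ra and Il18r1) and 1 fell (Tgfbr1). Il1r2, the IL-1 decoy receptor, changed by 1.64 ± 0.28 (adjusted p = 8.13e-05), against a mean of -0.02 in the other types. Of 15 inflammasome genes 6 rose (Naip2, Naip5, Casp1, Casp4, Mefv and Il18), and of 19 survival and death genes 5 rose (Casp8, Xaf1, Daxx, Cflar and Mlkl). Casp1, which cleaves the precursors of IL-1 beta and IL-18, was at 10.87 and 10.82 with interferon, against 7.73 and 8.22 at baseline (change 2.87 ± 0.25, adjusted p = 1.79e-10). Mlkl, the executor of necroptosis, was at 8.84 and 9.52 with interferon, against 5.49 and 6.07 at baseline (change 3.40 ± 0.29, adjusted p = 1.37e-10). Of 14 Toll-like receptor genes and adaptors 2 rose (Tlr2 and Tlr4) and 1 fell (Irak3, an inhibitor of their signalling). The falls of Sirpa and Irak3 were not called with the B cell covariate, that of Sirpa also not without interferon array 1 or baseline array 2, and that of C5ar1 not without interferon array 1. The rise of Tlr2 was not called with the covariate, without interferon array 1 or without baseline array 1, and the rises of Il18r1 and Naip5 not with the covariate or without baseline array 1. With the preparation term Jak2, Il1rn, Cd47, Cflar, Il10ra, Tlr2, Fcgr4 and Treml2 were not called. With 1 array left out, 1 to 2 Fc and phagocytic receptors and 2 to 6 cytokine and growth factor receptors were raised.

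The genes of the ready-made granule proteins gave no calls. No gene was called among 9 primary granule, 13 secondary granule, 10 tertiary granule and 11 cytosolic protein genes, whose median changes were -0.02, 0.07, -0.14 and -0.04. Lactoferrin (Ltf) was at 12.05 and 12.40 on the interferon arrays, against 11.85 and 12.46 on the baseline arrays, and S100a9 at 13.36 and 13.49, against 13.45 and 13.60. For both genes the groups overlapped. Without interferon array 2, Mmp9 and Mmp25 of the tertiary granule list were lowered. So was Ltb4r1, which is in the secondary granule list but is also listed as a chemoattractant receptor. With the B cell covariate 1 tertiary granule gene (Cd93) was raised. S100a8 was at 13.22 and 12.90 with interferon, against 13.47 and 13.46 at baseline, and did not pass the test (change -0.41, adjusted p = 0.413). Of 8 NADPH oxidase genes 2 fell, Ncf1 (-1.03) and the proton channel Hvcn1 (-1.43). Neither was called without interferon array 1, without baseline array 2 or with the B cell covariate, and Cybb, the oxidase's catalytic chain, was called with that covariate (2.21, against 0.49 without it).

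The 563 lowered genes include a set of B cell genes. Of 13 B cell markers 7 fell and 0 rose. Their median level was 6.26 and 6.34 on the interferon arrays, against 9.0 and 8.03 on the baseline arrays, and their summed intensity was 1428 and 1411, against 7088 and 4289. Of the 13, 4 and 2 were above a log2 level of 7 on the interferon arrays and 13 and 9 on the baseline arrays. In these bulk samples fewer cells of a type and less RNA per cell cannot be told apart. Cd79a, a signalling chain of the B cell receptor, was at 5.91 and 6.22 with interferon, against 9.87 and 9.0 at baseline (change -3.37 ± 0.57, adjusted p = 6.05e-05).
Of 8 MHC class II genes 6 fell. H2-Aa, the largest fall, was at 6.20 and 6.04 with interferon, against 10.87 and 9.96 at baseline (change -4.29 ± 0.81, adjusted p = 0.000293). The median level of the class II list was 6.95 and 6.81 with interferon, against 9.65 and 9.03 at baseline, so baseline array 1 was the higher one, as it was for the B cell markers. Without baseline array 1, 3 B cell markers and 3 class II genes were called, and without interferon array 1, 4 and 4. The mean level of the B cell markers was added to the fit as a covariate across all arrays, and 452 genes (2.29%) were then raised and 345 (1.75%) lowered, with 278 of the 563 lowered genes still called. None of the 8 class II genes was called with it, and 14 of the 25 largest named falls were. The other 11 were H2-Aa, H2-Ab1, Ms4a1, Cd79a, Scd1, Cd74, Fcmr, Jchain, Fcer2a, Ly86 and H2-Ob. Of these, Cd74, Jchain, Fcer2a and Ly86 were also not called without interferon array 1 or without baseline array 1. Among the 11, Ms4a1, Cd79a and Fcer2a are averaged in the covariate, so their loss of the call with it is partly built in. For other cells, none of 9 T cell, 8 NK cell, 5 eosinophil or 5 platelet markers was called, and 1 each of the dendritic cell (Clec9a), macrophage (Adgre1) and monocyte (Nr4a1) lists fell, of which Nr4a1 alone was called with the covariate. In neutrophils the covariate itself ran with treatment, at 6.57 and 6.54 on the interferon arrays, against 8.75 and 8.01 on the baseline arrays. Its slope therefore rests on differences between arrays of the same group, over all cell types. It is carried over to the gap between the neutrophil groups, so a call kept or lost with it is no direct test of B cell RNA. What part such cells had in these results was not tested further.

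**Figure D4:**
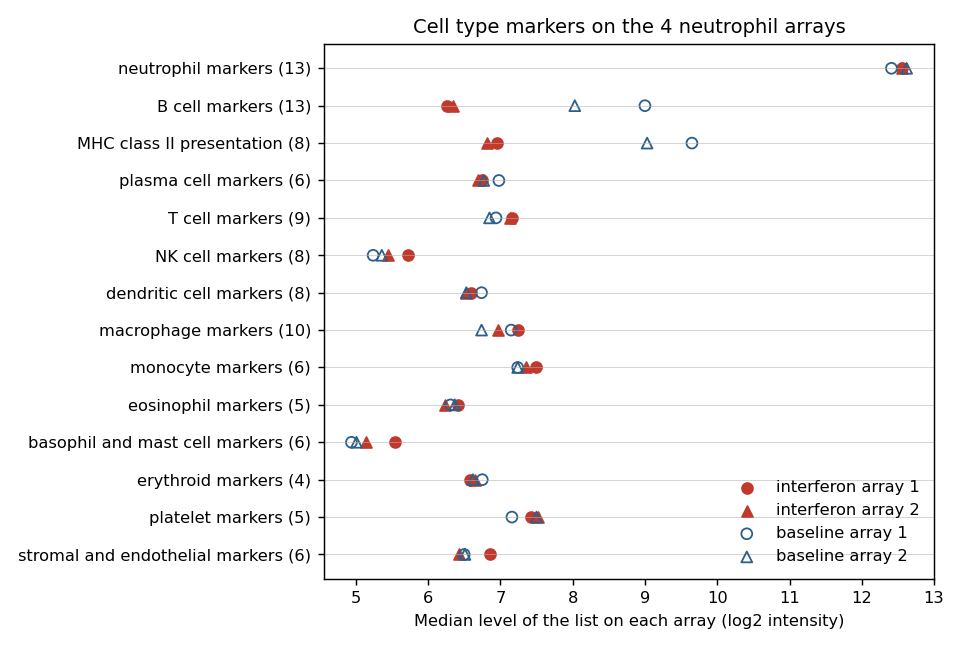
Median level (log2 intensity) of each marker list on the 4 neutrophil arrays, with the number of measured genes in brackets, filled red symbols for interferon and open blue symbols for baseline. B cell markers and class II genes lie lower on both interferon arrays than on both baseline arrays, and neutrophil markers lie near 12.5 on all 4.

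Among the falls that stayed called with the covariate, Zfp36l2 was the largest. It encodes a protein that binds AU-rich messages and speeds their decay, and was at 8.95 and 8.67 on the interferon arrays, against 12.40 and 12.33 on the baseline arrays. The change was -3.56 ± 0.34 (adjusted p = 1.19e-09), an 11.8-fold fall, and -3.41 with the covariate. It exceeded the fall in each of the other 8 types, which ran from -0.34 to -1.43, and differed from their mean by -2.60 ± 0.35 (adjusted p = 8.4e-06). Its relative Zfp36l1 fell by 1.29 (adjusted p = 0.00925) but not with the covariate, while Zfp36 was at 11.74 and 11.70 with interferon, against 11.80 and 11.98 at baseline, and was not called.
Next in size was Cd79b (-3.11, and -1.56 with the covariate), a B cell marker that is itself averaged in the covariate. Other such falls were Mmd (-2.57), the phosphatase gene Phospho1 (-2.44), P2ry2 (-2.42), the amino acid transporter gene Slc43a2 (-2.28) and the semaphorin gene Sema7a (-2.22). The small GTPase gene Rhof (-2.18), the endolysosomal channel gene Tpcn1 (-2.12) and the oxidative stress gene Osgin1 (-2.07) also stayed called. For Sema7a the level was 7.14 and 7.33 with interferon, against 9.53 and 9.38 at baseline, and its mean change in the other types was 0.07. Of 15 glycolysis genes 2 fell, both transporters: Slc2a3, a glucose carrier, was at 9.75 and 10.59 with interferon, against 12.10 and 12.13 at baseline (change -1.94 ± 0.33, adjusted p = 6.87e-05), and Slc16a3, a lactate exporter, changed by -1.78 ± 0.22 (adjusted p = 4.89e-07). Of 21 immediate early genes Atf3 rose (1.51) and Nr4a1 fell (-1.93), and of 16 NF-kB pathway genes Nfkbid (-1.18) and Bcl3 (-1.12) fell. Of these 4, Atf3 and Bcl3 were not called with the covariate, nor was Atf3 without baseline array 1, Bcl3 without interferon array 1 or baseline array 2, or Nfkbid without interferon array 1. Without interferon array 2, 4 glycolysis, 6 immediate early and 5 NF-kB pathway genes were lowered, and without interferon array 1, 2, 1 and 0.

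Set against the mean change of the other 8 cell types, 206 genes (1.04%) changed more positively and 258 (1.31%) more negatively in neutrophils. Of the 480 raised genes 190 were among the 206, and 11 had risen less than in the other types. For 461 of the 480 the mean change in the other types was positive, against 9017 of all 19752 genes, and for 177 it was at least 1. Of the 563 lowered genes 194 were among the 258. For 510 of the 563 the mean change in the other types was negative, and for 7 it was -1 or lower. The median change of the lowered genes ran from -0.47 to -0.18 in the 8 other types, against -0.1 to 0.01 for all genes.
Lipg and Acod1 headed the more positive differences. They belong to a list of 18 lipid mediator and immunometabolic enzymes, of which 5 rose (Acod1, Nampt, Lipg, Gch1 and Hdc) and 0 fell, with a median change of 0.18. Lipg was at 9.44 and 10.38 on the interferon arrays, against 5.59 and 5.74 on the baseline arrays, and its change of 4.24 compares with 0.01 to 1.66 in each other type (difference from their mean 3.70 ± 0.21, adjusted p = 7.5e-14). Acod1 was at 12.75 and 13.16 with interferon, against 8.58 and 9.29 at baseline. Its change of 4.02 compares with 1.29 in dendritic cells, 1.26 in macrophages and at most 0.37 in the 6 lymphocyte types (difference 3.54 ± 0.25, adjusted p = 1.2e-11). Tagap, a GTPase-activating protein, was at 12.57 and 12.97 with interferon, against 9.09 and 9.37 at baseline, a change of 3.54, against 1.88 in macrophages, 1.27 in dendritic cells and -0.68 to 0.01 in the lymphocyte types.
The remaining named ones were Gbp5, Ifi205, Pnp, Fcgr1, Gbp3, Acer3 (alkaline ceramidase), Casp12 (a caspase), Plk2 (a polo-like kinase) and Il18, with differences of 2.57 to 3.34. Set against the mean of dendritic cells and macrophages alone, 121 genes (0.613%) changed more positively and 207 (1.05%) more negatively in neutrophils. Lipg (3.15), Acod1 (2.74), Gbp3 (2.51), Gbp5 (2.42), Plk2 (2.36), Ifi205 (2.28), Casp12 (2.23), Acer3 (2.04) and Tagap (1.97) were among the 121, while Fcgr1, Pnp and Il18 were not, their changes in those other myeloid cells averaging 3.03, 2.87 and 1.82. The macrophage part rests on 1 interferon array, assumed to vary like the others. Ifi205 changed by 5.91 in neutrophils, 5.55 in macrophages and 5.84 in NKT cells. In dendritic cells it changed by 1.72, from a baseline level of 11.37.
On the negative side, Ms4a4c, a membrane protein of the Ms4a family, was at 6.26 and 5.98 with interferon, against 8.76 and 7.55 at baseline, a change of -2.04, against 1.08 to 3.56 in each other type (difference -3.91 ± 0.36, adjusted p = 3.7e-09). It was not called in neutrophils with the B cell covariate. Of the 9 Ms4a genes 0 rose, with a median change of 0.15 in neutrophils and 1.06 in the mean of the others. The other negative differences with the largest sizes were the falls of H2-Aa, Ms4a1, H2-Ab1, Cd79a, Fcmr, Cd74, Scd1 and Ly86, and the smaller rise of Mx1. These falls were not called in neutrophils with the B cell covariate, in which Ms4a1 and Cd79a are themselves averaged.

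**Figure D5:**
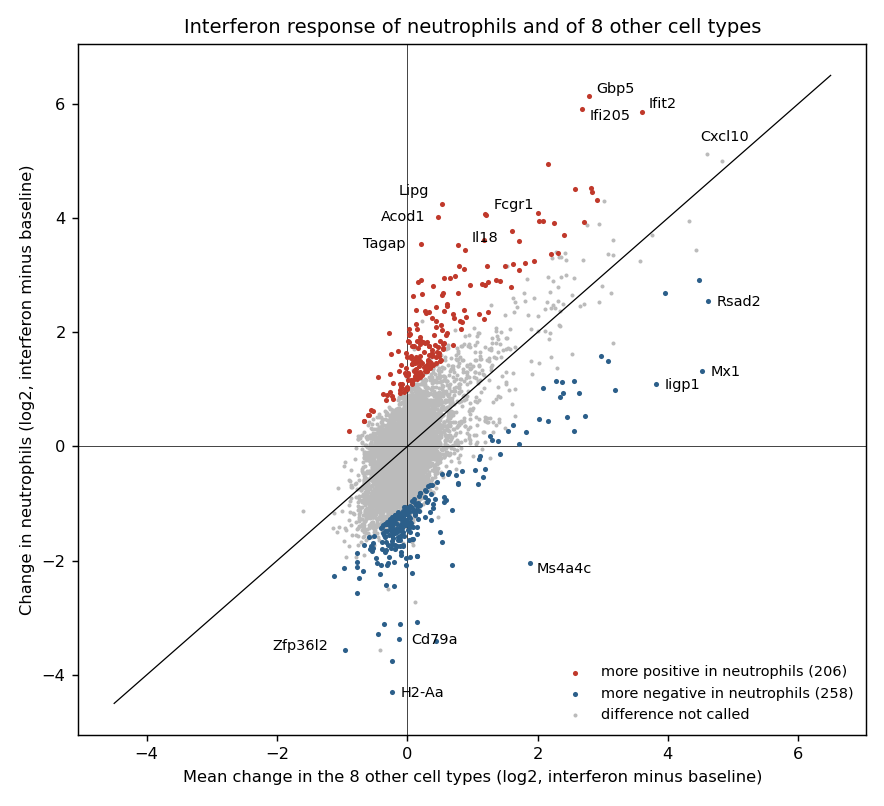
Change in neutrophils (vertical axis) against the mean change in the 8 other cell types (horizontal axis), both as log2 interferon minus baseline, with the line marking equal changes. Lipg, Acod1 and Tagap lie high near the vertical axis, Rsad2, Mx1 and Iigp1 lie below the line, and Ms4a4c changed in opposite directions.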

How the data were processed

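RNA of sorted cells was hybridised to Mouse Gene 1.0 ST arrays of Affymetrix. Per the submitters' processing notes, Affymetrix Power Tools and RMA were used (with no version stated; build: not given in the sources used here). Deposited values are linear intensities per probe set, from 4.69 to 22042, with array medians of 105 to 125. They were converted to log2 here with no further scaling. Of 24922 probe sets 21425 have 1 gene symbol, 1399 several and 2098 none in the platform annotation. The brightest probe set stood for each of 19752 genes. The number of arrays limits the precision.

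limma 3.58.1 (R 4.3.3; lmFit, eBayes) was fitted to all 43 arrays with 18 group means and 25 residual degrees of freedom. Calls need a two-sided Benjamini-Hochberg adjusted p below 0.05 over all genes and a change of at least 1. Differences from other types are interaction contrasts. Each gene has 1 residual spread, shared by all 18 groups, so its SE and p-value do not measure the neutrophil spread alone. The interferon arrays of Lipg and Phospho1 had standard deviations of 0.67 and 0.97, while the SEs of their changes were 0.20 and 0.25. With neutrophil arrays alone their limma adjusted p-values were 0.00088 and 0.018, against 1.23e-16 and 4.93e-09 in the fit to all arrays. Named genes were the 25 largest rises and falls and the 12 most positive and 10 most negative differences from the other types, each called, with no overlap of groups and keeping its sign with a preparation term, leaving out predicted genes and small RNAs. The preparation term sets arrays described as stained against all others, and is estimated from other cell types. It rests on the 1 baseline array of each other type not described as stained. That array has the same number in each type, so preparation and array number cannot be told apart in it. List genes were picked after their values were seen. Members and lists were chosen with earlier results of these data known. On simulated data of this comparison (19752 genes) 88% of genes changed by 1.5 log2 units and 96% changed by 2 were recovered. There was 1 false call. The simulated noise was independent between arrays, with 1 spread per gene for all groups. It did not cover the wider spread between the interferon arrays or deviations shared by arrays, so it gives no error rate for the real arrays. Same-numbered neutrophil arrays deviated together with a correlation of 0.35, over only 2 pairs.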

Additional observations from a re-analysis of the deposited data

Results flagged for a closer look

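The tests of the difference between neutrophils and the mean of the other 8 cell types picked out 22 named genes. The neutrophil change was the more positive by 3.70 log2 units for Lipg, 3.54 for Acod1, 3.34 for Gbp5, 3.34 for Tagap, 3.22 for Ifi205, 2.89 for Pnp, 2.85 for Fcgr1, 2.79 for Gbp3, 2.74 for Acer3, 2.71 for Casp12, 2.70 for Plk2 and 2.57 for Il18. Within neutrophils all 12 kept their calls as raised genes with the preparation term, with the B cell covariate and with any neutrophil array left out. The neutrophil change was the more negative by -4.05 for H2-Aa, -3.91 for Ms4a4c, -3.85 for Ms4a1, -3.53 for H2-Ab1, -3.24 for Cd79a, -3.21 for Fcmr, -3.20 for Mx1, -3.0 for Cd74, -2.83 for Scd1 and -2.76 for Ly86. Of these 10, 9 are falls, and none of those 9 was called within neutrophils with the B cell covariate. Cd74 and Ly86 were also not called without interferon array 1 or without baseline array 1. Ms4a1 and Cd79a are themselves averaged in the B cell covariate, so their loss of the call with it is partly built in. Mx1 is a smaller rise. Groups of 2 arrays are too small for a test of single outlying arrays.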

How the results depend on the processing

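Counts of raised genes stayed within 1.5 times of 480 in every alternative but 1: dropping the minimum change gave 832 raised and 1479 lowered. Without that minimum 350 genes changed more positively and 465 more negatively than in the other 8 types. With the B cell covariate 345 genes were lowered, 119 changed more negatively than in the other 8 types and 112 more negatively than in dendritic cells and macrophages, while Jchain (0.64), Fcer2a (0.40) and Ly86 (0.22) turned positive. Quantile normalisation gave 505 raised genes, of which 438 were among the 480, and 508 lowered genes, of which only 318 were among the 563. It gave 341 genes more negative than in the other 8 types, 169 of them among the 258, and 319 more negative than in dendritic cells and macrophages, 144 of them among the 207. Array weights gave 191 more positive and 353 more negative than in those cells. The preparation term gave 425 raised and 664 lowered. The cause of these shifts was not tested.

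Leaving out 1 neutrophil array at a time gave 400 to 538 raised and 269 to 1024 lowered genes, 128 to 256 more positive and 110 to 479 more negative than the other 8 types, and 71 to 181 and 91 to 399 against dendritic cells and macrophages. The highest counts of lowered and more negative genes came without interferon array 2 and the lowest without interferon array 1. Without baseline array 1 the counts against the other 8 types were 128 and 134, and 71 and 95 against dendritic cells and macrophages. Without baseline array 2 the more negative counts were 167 and 128. The replicate block gave 481 raised and 568 lowered genes over all arrays, and 478 and 566 within neutrophils. The shared numbers are only numbers here, since 2 pairs cannot show a pairing. Named genes were picked for large changes, groups without overlap and the same sign with the preparation term, which is itself an alternative. Their agreement across alternatives is therefore partly built in. Of 852 values for 57 named genes under alternatives, 823 kept direction and call, 26 lost the call and 3 reversed.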

Other observations

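Genes of growth and protein folding gave few calls in neutrophils. None of 14 cell cycle genes was called (median change 0.33, against 0.34 in the mean of the other 8 types), nor any of 9 heat shock genes (median 0.09, against 0.37). Of 19 sterol and fatty acid genes 2 fell, Scd1 and Scd2, both desaturases, and neither was called with the B cell covariate. Prdm1, a transcription repressor listed among plasma cell markers, was at 7.84 and 8.54 on the interferon arrays, against 6.16 and 6.10 on the baseline arrays (change 2.06 ± 0.29, limma adjusted p = 3.48e-06), while Jchain, another gene of that list, fell. Hdc, which makes histamine, was at 12.22 and 12.64 with interferon, against 10.98 and 11.22 at baseline (change 1.33 ± 0.25, limma adjusted p = 0.000348). Of 9 genes linked to chromatin and extracellular traps only Lmnb1 rose (1.10), and it was not called with the preparation term or the covariate.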
